A study of Mus musculus with 6 samples.

Results

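Cytosolic ribosomal protein genes encode the proteins of the ribosome that translates nuclear mRNAs. The genes were chosen by symbol, as every row of the deposited gene table named Rpl or Rps with a number and at most 1 further letter, together with Rplp0, Rplp1, Rplp2 and Rpsa, and without the rows named as pseudogenes. This gave 83 of 53797 genes, of which 51 belong to the large and 32 to the small subunit. They were measured in MLO-Y4 cells, a mouse line with features of osteocytes, in 3 cultures treated with low-intensity pulsed ultrasound (LIPUS) and 3 untreated control cultures. LIPUS was given for 20 min at 1.5 MHz and 30 mW/cm2, and RNA was taken after a short rest in the incubator. Both groups were grown alike in medium with fetal bovine serum on collagen-coated plates, and according to the methods a plate carried treated wells beside control wells whose transducers were unplugged. MLO-Y4 is a single immortalised line, so that the cultures are replicates of that line and not of animals. The table holds 1 FPKM per group, the authors' value pooled over the cultures of the group (fragments per kilobase of exon, scaled to the number of mapped reads). It has no value for a single culture, so that no SD can be given for any gene and none was tested across replicates here. The columns of the authors' own comparison were not used, and every difference below is a description of these pooled values. Depth per library cannot be read from the table. The study describes a control library that lay away from the others of its group, which pooled values do not allow to be left out. Its authors propose that LIPUS may have leaked into control wells of the shared plate. Whether this affected the differences below was not tested.

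A ribosome holds a single copy of nearly all of its proteins, and cells keep the mRNAs of the proteins at high and coordinated levels. Many of these mRNAs begin with a terminal oligopyrimidine (TOP) tract, a C followed by further pyrimidines, through which their translation is controlled by mTOR signalling and the protein Larp1. That control acts on translation, whereas the values here are mRNA levels.

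The start of several members is shown because the TOP tract is the feature for which ribosomal protein mRNAs are known. Each line gives 40 bases of the RefSeq start site table of GRCm38.p6, 25 before and 15 from the annotated start, 5′ to 3′ on the transcribed strand. Capitals mark a run of a C followed by at least 4 bases that are C or T, starting within 10 bases of the annotated start on either side. The genes are Rplp2 and Rpl12, the highest and lowest of the large subunit in the comparison below, then Rpl24, Rps10 and Rps6 from the ends of the same order, and the abundant Rpl41, Rps26 and Rpsa.
Rplp2, chr7:141447626-141447665, plus strand: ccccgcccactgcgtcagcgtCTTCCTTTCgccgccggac
Rpl12, chr2:32961687-32961726, plus strand: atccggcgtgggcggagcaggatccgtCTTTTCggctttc
Rpl24, chr16:55966250-55966289, plus strand: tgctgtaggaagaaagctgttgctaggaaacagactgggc
Rps10, chr17:27635230-27635269, minus strand: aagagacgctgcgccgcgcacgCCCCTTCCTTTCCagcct
Rps6, chr4:86857353-86857392, minus strand: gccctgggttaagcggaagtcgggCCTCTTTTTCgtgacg
Rpl41, chr10:128549154-128549193, minus strand: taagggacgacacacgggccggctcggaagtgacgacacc
Rps26, chr10:128626492-128626531, minus strand: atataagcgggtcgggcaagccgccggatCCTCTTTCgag
Rpsa, chr9:120127741-120127780, plus strand: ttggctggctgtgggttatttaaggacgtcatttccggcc
Both Rplp2 and Rpl12, at opposite ends of the comparison, carry such a run, of 9 and 6 bases, while Rpl24, Rpl41 and Rpsa have none in these letters and this window. Of the 77 abundant members described below, 57 had a window in the table, and 35 of these (61.4%) held the run. The share was 58.8% in the large and 65.2% in the small subunit. Among the other genes with an FPKM of at least 100 it was 37.5%, and 33.3% was the share among all 27025 genes with a start window. Genes with several windows have more chances of a match; with a single window the shares were 54.2% for the members, 32.6% for the other abundant genes and 29.7% for all. Only the transcribed strand was searched, and a match describes the letters and does not locate the start used in these cells.

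The labelled cell type was checked against its markers. Pdpn and Gja1, markers of the osteocyte dendrite and its gap junctions, were at 295 and 176 FPKM in Control and at 402 and 170 FPKM with LIPUS. Dmp1, a matrix protein of osteocytes, was low, at 3.04 FPKM in Control and 7.65 FPKM with LIPUS. Sost, Mepe, Fgf23 and Dkk1 were listed at 0 in both groups, and Phex was at 0.19 FPKM with LIPUS and at 0 in Control. The osteoblast genes Spp1 and Col1a1 were at 4514 and 891 FPKM in Control and at 4158 and 731 FPKM with LIPUS, and all 6 osteoblast markers together summed to 5729 FPKM in Control and 5099 FPKM with LIPUS. Of the 4 white blood cell markers 3 were at 0 and Cd68 was at 5.32 FPKM in Control and 1.72 FPKM with LIPUS, and the endothelial and epithelial markers were all under 1 FPKM. The part of these marker levels in the results was not tested. In bulk RNA, fewer cells of a type and less RNA per cell cannot be told apart.

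The members fell into 2 sets far apart in level. In both groups 77 of the 83 members were abundant, all between 173 and 3180.1 FPKM, and the other 6 were under 2 FPKM. The abundant members comprise 46 of the large and 31 of the small subunit, and lie on 19 chromosomes. Of these, 74 exceeded 300 FPKM in both groups, and 28 exceeded 1000 FPKM in Control. Members filled 18 of the 50 highest places among all genes in Control and 17 with LIPUS, and 39 and 36 of the 100 highest places. Their FPKM summed to 12.99% of all FPKM in Control and 12.58% with LIPUS. FPKM is scaled by length, so that levels of different genes can be set side by side. A member's level also depends on how reads were shared with near-identical copies, which are described below.

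The 6 low members are copies of restricted expression or pseudogenes. Rpl10l and Rpl39l, testis-enriched paralogues of Rpl10 and Rpl39, were listed at 0 in both groups, against 735 and 319.95 FPKM in Control for Rpl10 and Rpl39 themselves. Rpl32l and Rps4l, which the annotation calls pseudogenes, were also at 0. Rpl3l, the paralogue of Rpl3 in striated muscle, was at 0.247 FPKM with LIPUS and at 0 in Control, against 637 FPKM in Control for Rpl3. Rpl6l, a processed pseudogene whose transcript is nearly identical to that of Rpl6, was at 0.629 FPKM in Control and 1.23 FPKM with LIPUS. A row so low beside a near-identical gene at 439.5 FPKM in Control and 450.5 FPKM with LIPUS cannot be told apart from reads of that gene.

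**Figure D1:**
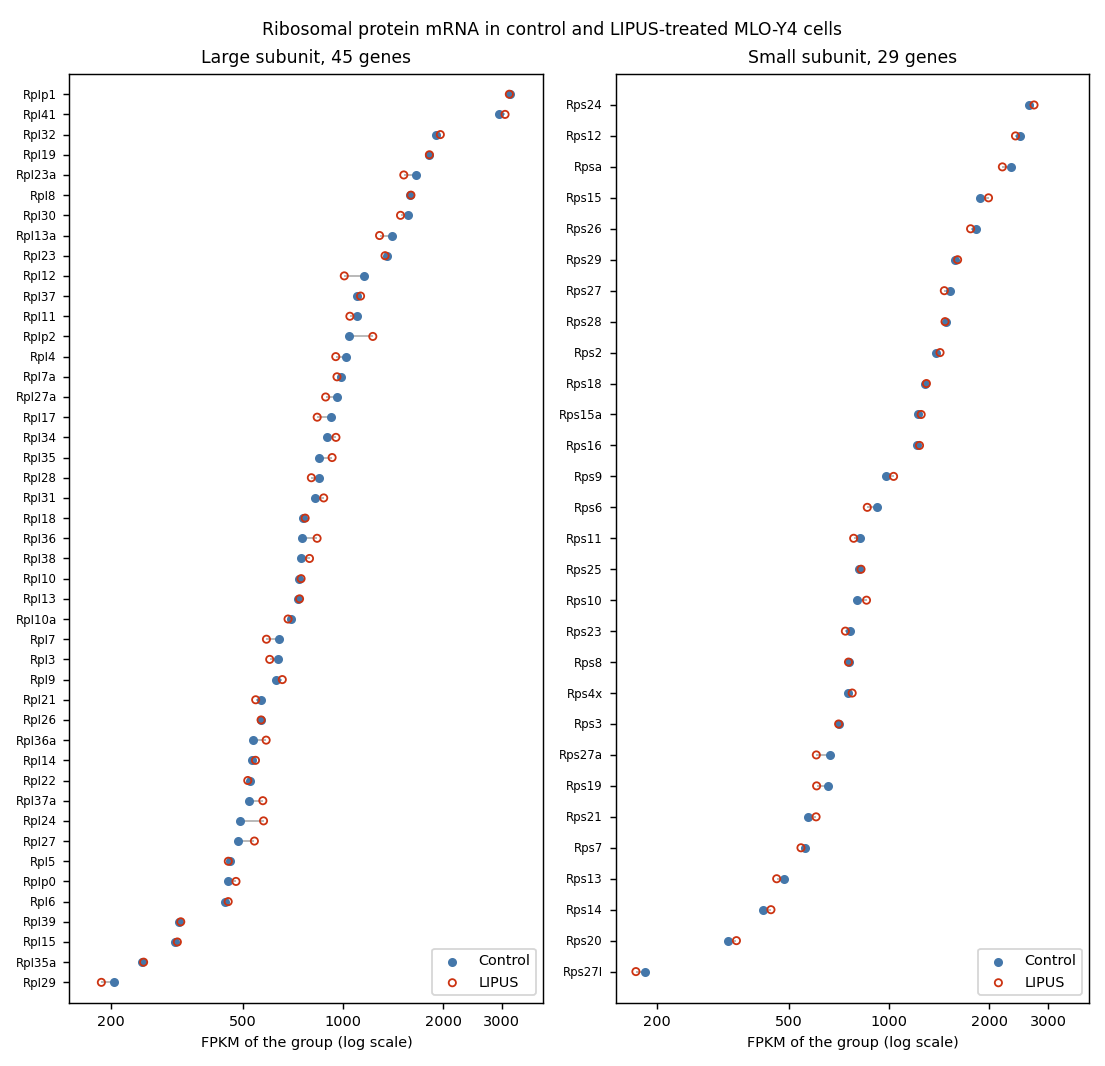
FPKM of 74 of the 77 abundant ribosomal protein genes in Control (filled) and LIPUS (open) on a log axis, ordered by the Control value, with the large subunit left and the small subunit right. Each point is the authors' single value for a group, so there are no error bars. The 2 points of most genes touch, and Rplp2, Rpl24 and Rpl12 are the widest apart.

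In the large subunit, Rplp1, an acidic protein of the stalk that binds elongation factors, had the highest level, at 3180.1 FPKM in Control and 3161 FPKM with LIPUS. It ranked 10 among all genes in Control. Rpl41, the shortest of the proteins with 25 residues, followed at 2938 and 3068 FPKM. Rpl32 was at 1896 and 1959 FPKM, Rpl19 at 1812 and 1816 FPKM, and Rpl8, which reaches towards the peptidyl transferase centre, at 1592 and 1598 FPKM. The lowest of the abundant large subunit genes was Rpl29 at 204 and 187 FPKM, 15.6 times under Rplp1 in Control.

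In the small subunit, Rps24 was highest at 2639 FPKM in Control and 2725 FPKM with LIPUS. Rps12 was at 2473 and 2397 FPKM, and Rpsa, also known as the laminin receptor precursor, at 2318 and 2189 FPKM. Rps15 was at 1873 and 1988 FPKM, Rps26 at 1821 and 1756 FPKM, and Rps29 at 1572 and 1605 FPKM. The median was 815 FPKM in Control and 854 FPKM with LIPUS, against 751 and 797 FPKM in the large subunit. From the highest to the lowest abundant gene of the small subunit the level in Control differed 14.3 times. The order of levels was nearly the same in both groups (Spearman's rho across genes 0.99 in the large and 0.996 in the small subunit, a description, since all values of a group share its libraries and scaling).

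The comparison of LIPUS with Control asks whether these mRNAs differed soon after the stimulation. Differences are log2(LIPUS/Control) of the deposited FPKM with no pseudocount, for genes with an FPKM of at least 1 in a group and above 0 in both, and 1.2-fold was taken as the size to count. None of the 77 abundant members lay past 1.2-fold in either direction. Over the genes with an FPKM of at least 100, 14.4% were past 1.2-fold higher and 6.74% past 1.2-fold lower, and over all 11777 genes with an FPKM of at least 1 these shares were 21.4% and 22.2%. The median difference was 0.01 over the 77 members, with 42 higher and 35 lower with LIPUS. In the large subunit 26 were higher and 20 lower with a median of 0.0085, and in the small subunit 16 were higher and 15 lower with a median of 0.0148. The differences lay between -0.19 and 0.24 in the large and between -0.13 and 0.10 in the small subunit. Of the 77, 44 lay within 5% of their Control value and 72 within 10%. The only member past 1.2-fold was Rpl6l (log2 0.97), 1 of 78 members that reached 1 FPKM.

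The spread of the abundant members is given beside that of other abundant genes, as a description with no test. The levels of the sets differ, with a median in Control of 808 FPKM for the members and 454 FPKM for the other genes. The SD of their differences across genes was 0.09 and the interquartile range 0.11, against 0.30 and 0.27 for the 237 other genes with an FPKM of at least 300. Of these other genes 25.7% lay past 1.2-fold in either direction, and their median was 0.08. The summed FPKM of the large subunit was 43931 in Control and 43887 with LIPUS, and that of the small subunit 33708 and 33691. The other genes summed to 519956 FPKM in Control and 539250 FPKM with LIPUS, with the largest increases in mt-Atp8 (23622 to 25248 FPKM), AC144852.1 (0 to 1122 FPKM) and Ctgf (1271 to 2375 FPKM). Scaling the groups so that the other genes had equal sums lowers every member by 0.05 on the log2 scale, so that 19 of the 77 were higher and 58 lower, and the direction of both medians flips. Even so, 0 of the 77 lay past 1.2-fold.

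**Figure D2:**
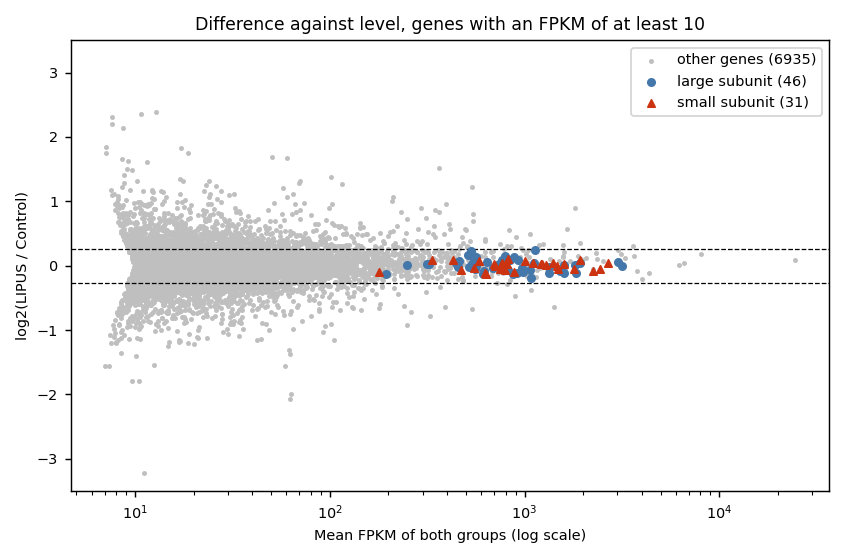
log2(LIPUS/Control) against the mean FPKM of both groups (log axis) for genes with an FPKM of at least 10, with large subunit members as circles, small subunit members as triangles and 6935 other genes in grey. Dashed lines mark 1.2-fold. All 77 members lie between the lines at the right of the plot.

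At a lower bound of 1.1-fold, 4 members were higher and 1 was lower in the deposited scaling, all of the large subunit. With the other genes scaled to equal sums, 2 large subunit members were higher and 10 lower, and 0 small subunit members were higher and 4 lower. Over all genes with an FPKM of at least 100, 30.3% were past 1.1-fold higher and 15.2% past 1.1-fold lower. The highest was Rplp2, the partner of Rplp1 in the acidic stalk (chromosome 7, 141447370 to 141451585), with 1039 FPKM in Control and 1227 FPKM with LIPUS, or 18.1% higher (log2 0.24). Rpl24, which takes part in a bridge between the subunits (chromosome 16, 55966275 to 55971435), was at 490.5 and 576 FPKM (0.23), but summed with Gm28037, which shares its exons, the difference was 0.02. Rpl27, mutated in some patients with Diamond-Blackfan anaemia, was at 481 and 540.2 FPKM (0.17), and Rpl36 at 749 and 834 FPKM (0.16). The lowest was Rpl12, which binds the base of the stalk (chromosome 2, 32961559 to 32965345), with 1151 FPKM in Control and 1007 FPKM with LIPUS, or a difference of -12.5% (log2 -0.19). Rpl17 was at 917 and 835 FPKM (-0.14), Rpl7 at 643 and 587 FPKM (-0.13), and Rpl29 at 204 and 187 FPKM (-0.12).

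The small subunit stayed within a smaller range. Its highest differences were those of Rps10 (798 FPKM in Control and 854 FPKM with LIPUS, log2 0.10), Rps20 (327 and 347 FPKM, 0.09), Rps15 (1873 and 1988 FPKM, 0.09) and Rps14 (416 and 440.2 FPKM, 0.08). Rps10 and Rps20 are neighbours on the head of the subunit and are ubiquitinated on collided ribosomes, and loss of a copy of RPS14 is known from the 5q- syndrome. The lowest were Rps27a, which is made as a fusion with ubiquitin (661 and 603 FPKM, -0.13), Rps19, the gene most often mutated in Diamond-Blackfan anaemia (652 and 604 FPKM, -0.11), Rps6, the substrate of S6 kinase (919 and 858 FPKM, -0.10), and Rps27l, a paralogue of Rps27 (185 and 173 FPKM, -0.10).

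Members were next taken by their place on the ribosome. The 4 stalk genes held both ends of the large subunit's range. Rplp2 and Rplp0, the anchor of the stalk (451 and 476 FPKM, log2 0.08), were higher, while Rplp1 (-0.01) and Rpl12 were lower. Rpl5 and Rpl11, which bind the 5S rRNA and can bind Mdm2 outside the ribosome, were at 457 and 1098 FPKM in Control and at 451 and 1047 FPKM with LIPUS (log2 -0.02 and -0.07). Of 8 genes whose proteins line the rim of the exit tunnel, 5 were higher and 3 lower, from Rpl17 at -0.14 to Rpl35 at 0.13 (844 and 926 FPKM). Between them lay Rpl23a (1653 and 1521 FPKM, -0.12), Rpl22 (524 and 516 FPKM, -0.02), Rpl26 (565 and 566 FPKM, 0.0010), Rpl19 (0.0037), Rpl39 (319.95 and 324 FPKM, 0.02) and Rpl31 (821 and 873 FPKM, 0.09). On the side where mRNA enters the small subunit, Rps2 (0.04), Rps9 (0.08) and Rps15 (0.09) were higher and Rps3 (-0.0062) and Rps23 (-0.05) lower. On the side where mRNA leaves, 2 of 6 genes were higher, among them Rps14 (0.08), and 4 were lower, namely Rpsa (-0.08), Rps7 (-0.04), Rps26 (-0.05) and Rps28 (-0.01). All these directions are those of the deposited scaling, and those between 0 and 0.05 turn under the scaling to equal sums of the other genes.

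Of 16 genes mutated in Diamond-Blackfan anaemia, a failure of red cell formation caused by too little of a ribosomal protein, 9 were higher and 7 lower with a median of 0.0095, and 0 lay past 1.2-fold. Rpl27 and Rps19 stood at the ends. Further members of this list were Rps10, Rps24 (0.05), Rpl31, Rps29 (0.03), Rpl15 (0.02), Rpl35a (0.02) and Rpl26 on the higher side, and Rps28, Rpl5, Rps7, Rps26, Rps27 (-0.05) and Rpl11 on the lower side.

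Pairs of paralogues were set side by side. Rps27 was at 1518 FPKM in Control and 1464 FPKM with LIPUS (log2 -0.05) and Rps27l at 185 and 173 FPKM (-0.10). Rpl36a was at 536 and 586 FPKM (0.13) and Rpl36al at 234 and 263 FPKM (0.17). Rpl22 and its paralogue Rpl22l1 (70.8 and 68.6 FPKM, -0.05) were both slightly lower, as were Rpl7 and Rpl7l1 (51.2 and 49.2 FPKM, -0.06) and Rpl3 (637 and 601 FPKM, -0.09). Rpl10 was at 735 and 746 FPKM (0.02), and Rps4x, the X-linked copy of the pair with Rps4l, at 752 and 773 FPKM (0.04). In the deposited scaling, both partners of each of the 4 pairs above 1 FPKM in both groups differed in the same direction, whereas Rpl3l was detected only with LIPUS while Rpl3 was lower.

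Protein length went with the differences in the large subunit. The proteins of the 77 members run from 25 residues to 419 in Rpl4, with a median of 151. Of the 15 large subunit proteins with at most 130 residues, 12 were higher and 3 lower with LIPUS in the deposited scaling, with a median of 0.08. Of the 14 with over 200 residues, 7 were higher and 7 lower (median -0.0070). Those in between had 7 higher and 10 lower (median -0.06). With the other genes scaled to equal sums, 9 of the short proteins were higher and 6 lower, 1 of the long ones was higher and 13 were lower, and of those in between 3 were higher and 14 lower. Spearman's rho across the 46 genes was -0.42. In the small subunit the medians were 0.02, 0.0148 and -0.0062 in the same order, and rho was -0.06. These relations are descriptions across genes that share libraries and scaling.

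**Figure D3:**
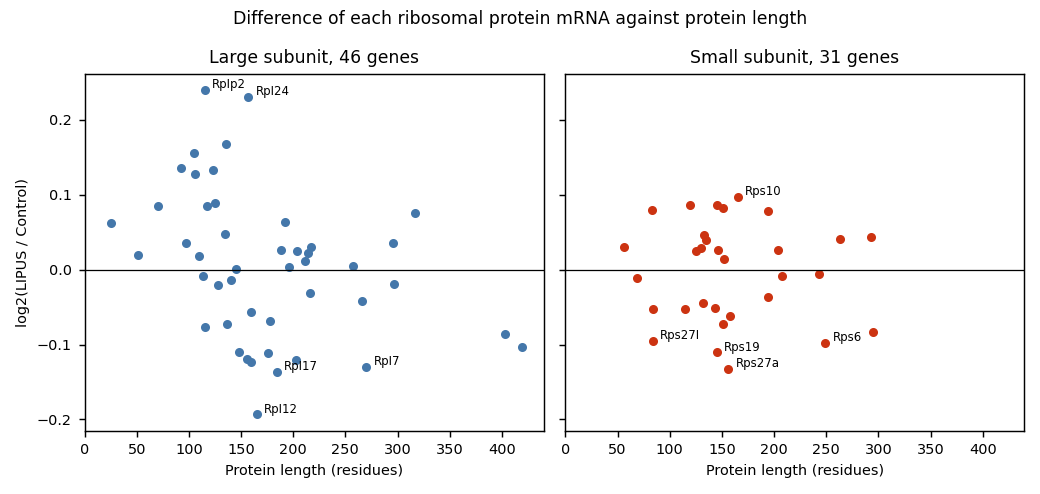
log2(LIPUS/Control) of each abundant member against the length of its protein in residues, large subunit left and small subunit right. In the large subunit 12 of the 15 proteins of at most 130 residues lie above the zero line in the deposited scaling, and 9 would with the other genes scaled to equal sums.

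The presence of a TOP-like run within 10 bases of the annotated start did not separate the members. Members scored as without it can hold a pyrimidine run further upstream, as Rpl4 and Rpl5 do. The split is therefore not one of members with and without a TOP tract. Those with the run had a median of 0.02 (20 higher, 15 lower) and those without it 0.02 (14 higher, 8 lower), and the 20 members not in the start site table -0.03 (8 higher, 12 lower). Rps10 and Rplp2, with the longest and the third longest of the runs printed above, were higher, and Rps6, with the second longest, was lower.

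Ribosomal protein genes have many near-identical copies in the genome, and reads can be shared among them. A search of transcripts with blastn at 98% identity over at least 100 bases found copies elsewhere in the genome for 67 of the 77 members, and 60 had a copy above 0. In 6 the copies reached over 5% of the member's own FPKM in Control. Rplp0 stood out, since Gm8730 on chromosome 8 was at 735 FPKM in Control and 716 FPKM with LIPUS, above Rplp0 itself, and the log2 difference of the 2 rows together was 0.0066 in place of 0.08. Rpl26 was in a like position with Gm15772 on chromosome 5 (472 and 451 FPKM), and its difference became -0.03. Rpl21 had 17 copies, which summed to 83.6 FPKM in Control and 79.8 FPKM with LIPUS. With the copies added, the median over the 77 was 0.0066, the range -0.19 to 0.24, and 0 lay past 1.2-fold.

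Rpl24 shares exons with Gm28037, a gene annotated over the same locus. Gm28037 was at 101 FPKM in Control and 24.1 FPKM with LIPUS, the opposite direction to Rpl24. The 2 rows summed to 591 FPKM in Control and 599.7 FPKM with LIPUS, a log2 difference of 0.02 in place of 0.23. How reads were divided between these rows cannot be seen in the table. Rpl28 shares sequence with Ube2s, a neighbouring gene at 451 and 483 FPKM. The exons of 37 of the 77 members overlap another annotated gene, often a snoRNA, and 29 members host 56 snoRNA genes, of which 4 were above 0. With their copies elsewhere added, the log2 difference was 0.238 for Rplp2, 0.176 for Rpl27, 0.145 for Rpl36 and -0.19 for Rpl12. Rows named as ribosomal protein pseudogenes numbered 290, of which 62 were above 0, and they summed to 292 FPKM in Control and 310 FPKM with LIPUS, or 0.376% and 0.399% of the members' sum. The highest was Rpl19-ps11 (60.1 and 60.2 FPKM).

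The lists of genes that work with the ribosome are given beside its own proteins as descriptions. Of 9 ribosomal proteins and paralogues outside the symbol rule 3 were higher and 6 lower (median -0.05). Fau, which encodes S30 as a fusion, was at 372 FPKM in Control and 425 FPKM with LIPUS (log2 0.19), Rpl37rt at 19.4 and 17.1 FPKM (-0.19), and Rps27rt, a retrocopy, at 14.2 and 11.5 FPKM (-0.31), the only one past 1.2-fold (11.1% of the list, against 32.4% in either direction over all genes with an FPKM of at least 10). Of 14 other mRNAs with TOP tracts, mostly translation factors, 6 were higher and 8 lower (median -0.03), and 0 lay past 1.2-fold, against 21.1% in either direction over all genes with an FPKM of at least 100. The median level of this list in Control was 487 FPKM. The widest were Hnrnpa1 (527 and 445 FPKM, -0.25), Eif4b (199 and 172 FPKM, -0.21) and Eif3h (292 and 264 FPKM, -0.15). Eef1a1, the elongation factor that brings tRNA, was at 3880.1 and 3667 FPKM (-0.08).

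Of 45 genes of ribosome biogenesis, 18 were higher and 27 lower with a median of -0.05. Past 1.2-fold there was 1 higher and there were 6 lower, or 15.6% in all. Over all genes with an FPKM of at least 10 the share was 32.4% in either direction, made up of 16.9% higher and 15.5% lower. The widest were Gar1, of the pseudouridylation complex (153 and 110.04 FPKM, -0.48), Ubtf, a transcription factor of RNA polymerase I (102 and 80.6 FPKM, -0.34), and Dkc1, the pseudouridine synthase (128 and 101 FPKM, -0.33), and the higher one was Nip7 (71.5 and 86.2 FPKM, 0.27). Of 18 regulators of ribosomal protein synthesis, 2 were past 1.2-fold higher and 5 lower (median -0.09), or 38.9% in all. Over all genes with an FPKM of at least 1 the share was 43.6%. The order turns at a higher floor. Of the 13 regulators with an FPKM of at least 10, the same 2 were higher and 5 lower, against 32.4% in either direction over all genes at that floor. The widest with an FPKM of at least 10 were Eif4ebp2, a repressor of cap-dependent translation (32.3 and 19.9 FPKM, -0.70), Rheb, the activator of mTOR (43.9 and 57.1 FPKM, 0.38), and Rps6kb1, which encodes S6 kinase (33.3 and 26.0 FPKM, -0.36). Larp1 was at 60.6 and 48.3 FPKM (-0.33), Myc at 209 and 237 FPKM (0.19) and Mtor at 7.34 and 8.01 FPKM (0.13). The median level of these regulators in Control was 32.7 FPKM, against 808 FPKM for the abundant members. Over all genes the SD of the differences was 0.59 at an FPKM of at least 1, 0.34 at 10 and 0.28 at 100.

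The proteins of the mitochondrial ribosome are encoded by separate nuclear genes. Of 79 measured, 35 were higher and 44 lower (median -0.04), with 7 past 1.2-fold higher and 14 lower, or 26.6% in all. Over all genes with an FPKM of at least 1 the share was the same 43.6%. Of the 75 with an FPKM of at least 10, 6 were past 1.2-fold higher and 12 lower, against 32.4% in either direction over all genes at that floor. The widest with an FPKM of at least 10 were Mrps35 (35.9 and 19.5 FPKM, -0.89), Mrpl46 (22.7 and 14.97 FPKM, -0.60) and Mrpl22 (56.7 and 38.9 FPKM, -0.54). Of 89 genes named as nuclear subunits of the respiratory chain, some of them assembly factors, 51 were higher and 38 lower (median 0.02), with 11 past 1.2-fold higher and 9 lower, or 22.5% in all, against 43.6%. Of the 81 with an FPKM of at least 10, 9 were past 1.2-fold higher and 5 lower, against 32.4%. The widest with an FPKM of at least 10 were Ndufc1 (71.8 and 44.0 FPKM, -0.71), Ndufaf6 (11.5 and 7.86 FPKM, -0.55) and Ndufaf8 (8.87 and 12.8 FPKM, 0.53). The medians of all these lists lay between -0.09 and 0.02.

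**Figure D4:**
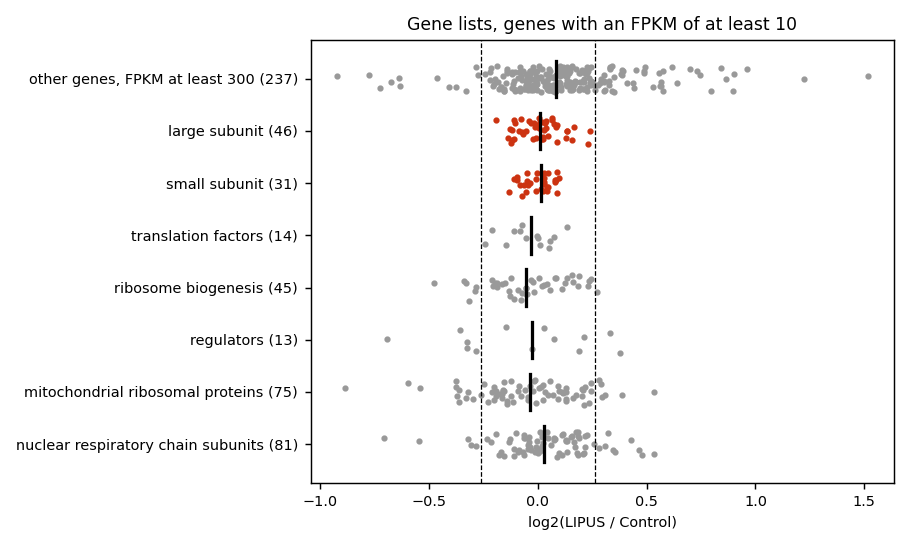
log2(LIPUS/Control) of each gene with an FPKM of at least 10 in the lists named at the left, with the number of genes in brackets, the median as a black bar and 1.2-fold as dashed lines. Vertical scatter within a list is only for display. The members (red) lie between the lines, as do the 14 other mRNAs with TOP tracts, labelled translation factors though not all encode one. Every other list has genes beyond the lines on both sides.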

How the data were processed

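RNA of 3 LIPUS-treated and 3 control cultures had been sequenced from stranded mRNA libraries. According to the methods and the processing notes, Trimmomatic 0.36 was used for trimming and TopHat2 2.1.0 with Bowtie2 2.2.6.0 for alignment to GRCm38. FPKM came from Cufflinks, whose version differs between those sources. The authors deposited 1 FPKM per group and gene, and a fold change, test statistic, p-value and q-value of their own comparison, which were not used. Samples were grouped by their labels.

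Here log2(LIPUS/Control) was computed for genes with an FPKM of at least 1 in a group, tested on simulated data first. Positions, protein lengths and exon overlaps came from GENCODE M21, start windows from RefSeq (GRCm38.p6), and copies from blastn 2.17.0. The work used matplotlib 3.10.9, scipy 1.17.1, pandas 2.3.3 and numpy 2.4.6 under Python 3.11.15. The members and lists were chosen with earlier results of these data known. Values were printed for the 6 most abundant, the 4 highest and the 4 lowest members of each subunit, the role groups, paralogue pairs, low members, and the 3 widest differences of each related list at an FPKM of at least 10. Eef1a1, Nip7, Rps6kb2, Larp1, Myc, Mtor, the members with abundant copies, Rpl28 and the largest increases among other genes were added after their values were seen. A few members are counted but not reported by name. Protein sequences were not used here.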

Additional observations from a re-analysis of the deposited data

How the results depend on the processing

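No paired analysis was possible because the table holds 1 pooled value per group, and no replicate could be left out for the same reason. Of 94 recomputed values, 72 kept their sign and stayed close to the reported value, meaning equal at 2 decimals for a median and within 1.5 times for a count. Scaling the other genes to equal sums turned the median log2 difference to -0.0411 in the large and -0.0378 in the small subunit, with 14 large subunit members higher and 33 lower and 6 small subunit members higher and 25 lower. The ratio of summed FPKM gave -0.00144 and -0.000754. Without members whose exons overlap another gene, an alternative added after seeing the data, the medians were 0.0307 and 0.0278, with 16 large subunit members higher and 7 lower and 7 small subunit members lower. The small subunit median was 0.0162 when centred on all genes, 0.0198 without 5 paralogues (Rpl3l, Rpl10l, Rpl39l, Rps4l and the abundant Rps27l) and also with 4 ribosomal proteins outside the rule, and 0.0151 with near-identical copies added, another later alternative. Members past the fold numbered 5 higher and 1 lower at 1.1-fold, and 0 higher, in place of 1, at a minimum FPKM of 10 or 100 or with copies added. The cause was not tested.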
